A study of Mus musculus with 9 samples.

Results

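The genes described here are 34 mouse genes known to be imprinted, taken by symbol from the 36410 rows of a gene count table made from poly(A)-selected RNA of 3 striatal cell lines. All 34 were found in the table, and 20 of them were among the 13508 genes with enough reads to be tested (edgeR's filterByExpr). The lines were STHdhQ7/Q7 (control), STHdhQ7/Q111 (HD-het) and STHdhQ111/Q111 (HD-homo), immortalized striatal cells from mouse embryos of the strain given as C57/BL6, with 3 libraries each. Control cells carried 7 glutamine repeats in exon 1 of both alleles of huntingtin, HD-het cells 7 on 1 allele and 111 on the other, and HD-homo cells 111 on both. The labels describe exon 1 as knocked in, also for the control line. The purpose of comparing the lines was to find what the expanded repeat changes in striatal cells. With 1 line per genotype, a difference between lines cannot be told apart from one between genotypes, and counts per gene do not show the repeat itself. Nothing in the labels says that the libraries of a line came from separate cultures, so that the p-values measure the spread between these libraries, which may be technical.

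An imprinted gene is transcribed mainly from the copy inherited from 1 parent, because DNA methylation set in the egg or the sperm marks a control region that the embryo then keeps. Such genes lie in clusters that a control region serves together, often with a long non-coding RNA that is made from the opposite parental copy. Many of them act on growth: genes used from the paternal copy, such as Igf2, tend to promote it, and genes used from the maternal copy, such as Cdkn1c and Grb10, tend to restrain it. Several are abundant in the embryonic brain and in other fetal tissues and fall after birth. The counts used here do not separate the parental copies, so that all values are totals over both.

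Libraries held 29507665 to 41197931 reads assigned to genes. Values are given as normalized CPM, counts per megaread after edgeR's TMM scaling, whose factors lay between 0.984 and 1.03. The detection floor was set at 3 reads, or 0.0710 to 0.101 CPM in these libraries, and covers counting error only. Replicate libraries of each line differed beyond sampling noise, most of all HD-homo replicates 2 and 3, whose mean chi-square per gene was 38.9 where counting alone gives about 1. Of 10 markers of striatal projection neurons 5 passed the filter, and Drd1, a dopamine receptor that defines part of these neurons, was at 0 in all 9 libraries. The 10 markers summed to 142 to 148 CPM in control, 200.5 to 206.5 CPM in HD-het and 182.7 to 207.4 CPM in HD-homo cells. Foxp1 and Meis2 carried nearly all of that sum. General neuron markers, 6 genes, summed to 88.8 to 114 CPM over the 9 libraries, nearly all of it from Tubb3 and Map2. The others, Rbfox3, Snap25, Syt1 and Dcx, had 0 to 2 reads per library and did not pass the filter. The summed level of 9 fibroblast and mesenchyme markers was 4834 to 6099 CPM in control, 12960 to 14910 CPM in HD-het and 6816 to 7388 CPM in HD-homo cells. Col1a1 and Acta2 carried most of that sum in control and HD-het cells, and its members did not move as 1: Col1a2 fell 23.3-fold in HD-het and rose 20.4-fold in HD-homo cells, and in HD-homo cells Acta2 fell 24.7-fold and Pdgfra rose 58.9-fold. The 6 neural progenitor markers summed to 666 to 708 CPM in control, 966 to 1005 CPM in HD-het and 32.5 to 45.4 CPM in HD-homo cells. Nes carried most of that sum in each line. In such bulk samples, fewer cells of a type and less RNA per cell cannot be told apart. The summed levels of markers of astrocytes, oligodendrocytes, microglia and endothelial cells were at most 17.8 CPM in any library.

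In HD-homo cells against control cells, 18 of the 20 testable imprinted genes passed the threshold of 0.05 for the adjusted p (edgeR's quasi-likelihood test, adjusted by Benjamini-Hochberg), 8 higher and 10 lower. Of all 13508 genes, 58.6% passed in this comparison, 29.6% higher and 28.9% lower. In HD-het cells against control cells, 17 of 20 passed, 10 higher and 7 lower, where 65.1% of all genes passed, 33.8% higher and 31.4% lower. Between HD-homo and HD-het cells, 17 passed, 5 higher in HD-homo cells and 12 lower, beside 71.6% of all genes, 36% higher and 35.6% lower. The median size of the log2 difference over the 20 genes was 1.38, 0.70 and 1.25 in these comparisons, and over all tested genes it was 0.32, 0.40 and 0.46. Libraries did not overlap for 19, 18 and 17 of the 20 genes, beside 65.3%, 74% and 72.8% of all genes. A log2 difference of at least 1 in size was fitted for 12, 9 and 10 of them, beside 19.8%, 19.4% and 24.5%. Phlda2 and Dlk1 passed the filter through the line where each was highest, and Peg3, Nnat and Rtl1 through a pair of lines, so that these counts and medians carry no weight as evidence about imprinted genes. The comparisons against control cells share the control libraries and are therefore given side by side.

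**Figure D1:**
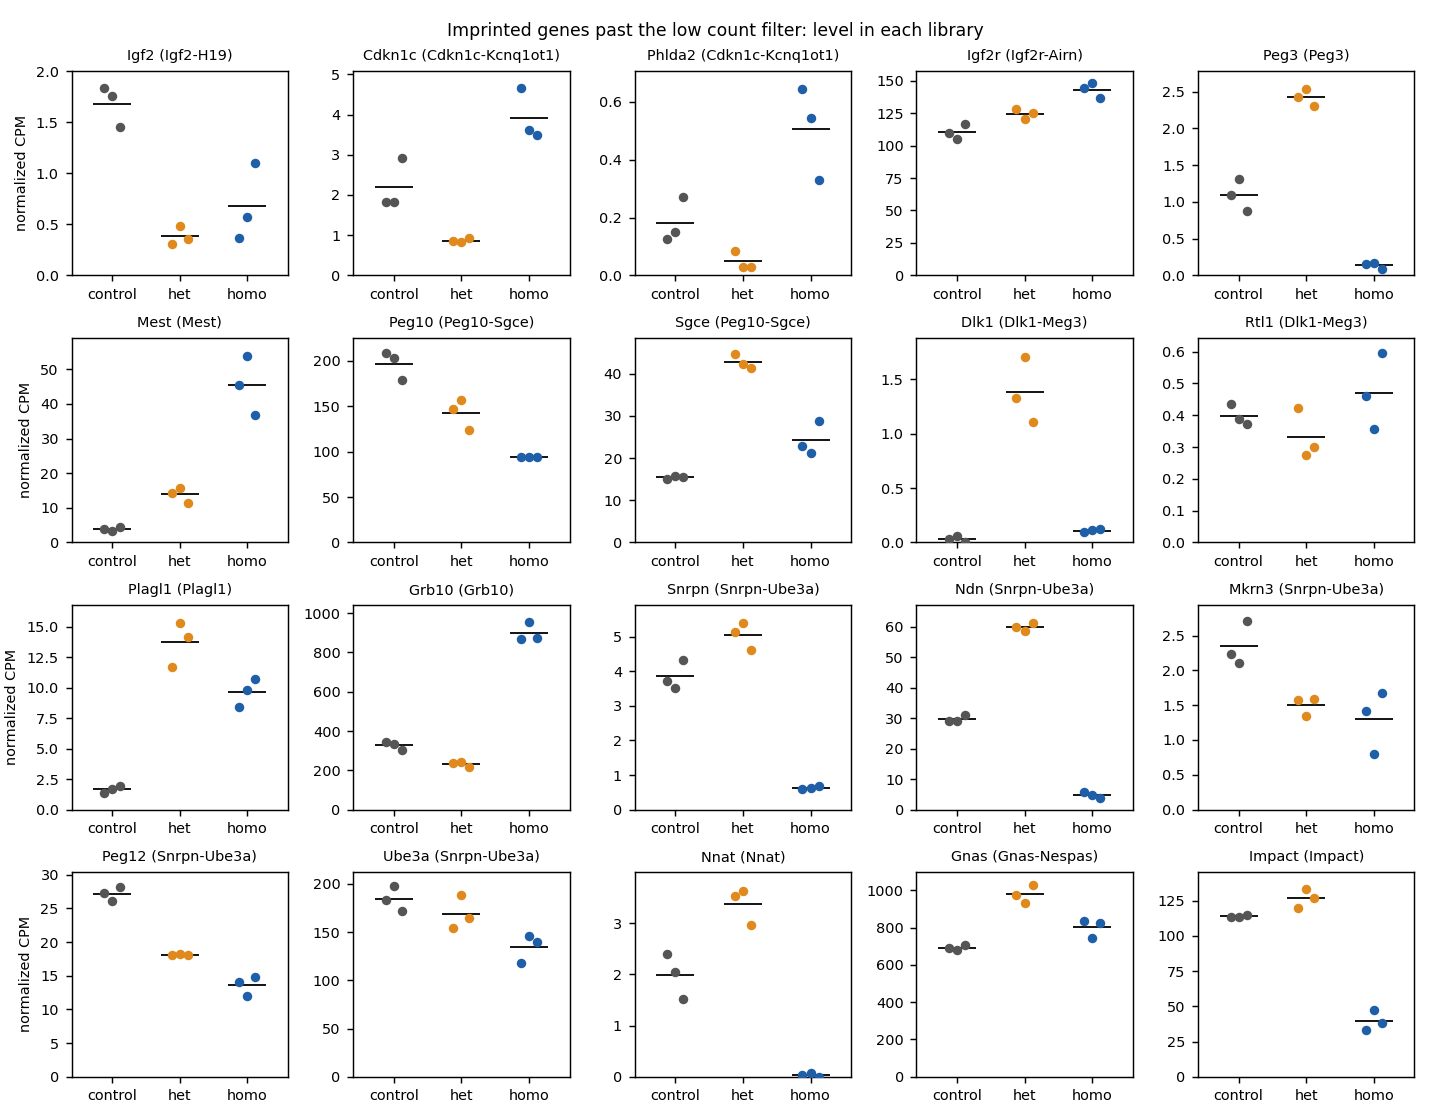
Level of the 20 testable imprinted genes in each library, in normalized CPM on a linear axis from 0, with a point for each of the 3 libraries of control, HD-het (het) and HD-homo (homo) cells and a bar at their mean, and with the cluster in brackets. Mest rose from 3.87 CPM in control to 13.9 in HD-het and 45.3 in HD-homo cells, while Ndn, Snrpn, Peg3 and Nnat stood highest in HD-het and lowest in HD-homo cells.

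The non-coding genes of the clusters could not be read. H19, Airn, Kcnq1ot1, Meg3, Rian, Mirg, Nespas and Peg13, all of them long non-coding RNAs, were listed at 0 in all 9 libraries. So were 10121 of the 10169 genes that RefSeq types as long non-coding RNA, among them Malat1, Neat1, Gas5, Snhg1 and Tug1, which are abundant in most cells, and all 1184 microRNA genes. Only 0.472% of long non-coding genes had any count, against 81.1% of 20917 protein-coding genes. The zeros of these 8 genes therefore say nothing about their expression, and the plot of genes counted by type shows the same for the whole table. The remaining 6 genes without a test are protein-coding and had few reads. Slc22a18, a transporter of the Cdkn1c cluster, had 0 to 13 reads per library, the most in HD-homo replicate 2. Ascl2, a transcription factor of the placenta, and Usp29, the neighbour of Peg3, each had 0 to 3. Zim1, a zinc finger gene beside Peg3, had 0 to 1, and Dio3, which inactivates thyroid hormone, and Magel2, a relative of Ndn, had 0 to 2 each.

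**Figure D2:**
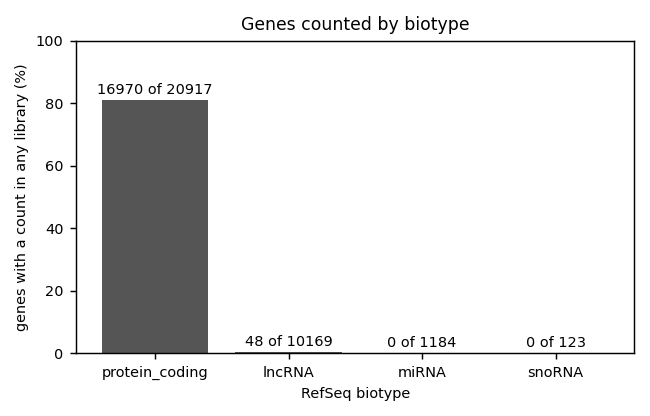
Share of genes with at least 1 read in any of the 9 libraries, in percent, by the type that RefSeq gives them. A bar reaches 81.1% for protein-coding genes, while 48 of 10169 long non-coding genes and none of the microRNA or small nucleolar RNA genes had a read.

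The growth factor Igf2 and the cell cycle inhibitor Cdkn1c lie on chromosome 7 in neighbouring clusters, Igf2 at chr7:142650766-142666816 and Cdkn1c at chr7:143458339-143461050, both on the minus strand (GRCm38, GENCODE M21). Igf2, a growth factor used from the paternal copy, fell in both HD lines. It stood at 1.84, 1.75 and 1.45 CPM in control, 0.310, 0.488 and 0.359 in HD-het and 0.368, 0.568 and 1.104 in HD-homo cells, from 59, 59 and 43 reads in control to 11 to 16 in HD-het and 12 to 37 in HD-homo cells. No library of either HD line reached the lowest control library, and the HD-homo libraries were widely spread. The level in HD-het cells was 4.36-fold lower (log2 −2.12 ± 0.35 SE, adjusted p = 0.000251), and in HD-homo cells 2.47-fold lower (log2 −1.31 ± 0.31, adjusted p = 0.00406). HD-homo and HD-het cells did not differ past the threshold (log2 0.81 ± 0.38, adjusted p = 0.0789), and did without HD-homo replicate 1 (log2 1.09, adjusted p = 0.0173). Of the 50-base words of Igf2 transcripts, 61.2% are shared with Gm49394, a gene model that covers the same exons and has no row in the table.

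Cdkn1c, an inhibitor of cyclin-dependent kinases used from the maternal copy, moved in opposite directions in the HD lines. Control libraries were at 1.84, 1.81 and 2.91 CPM, HD-het libraries at 0.846, 0.823 and 0.929, and HD-homo libraries at 4.66, 3.62 and 3.49. The 3 lines were fully separated, with HD-het lowest and HD-homo highest. It was 2.52-fold lower in HD-het cells (log2 −1.33 ± 0.23, adjusted p = 0.000433), 1.80-fold higher in HD-homo cells (log2 0.85 ± 0.20, adjusted p = 0.00365), and 4.53-fold apart between HD-homo and HD-het cells (adjusted p = 4.77e-06). An antisense gene model, Gm44732, covers 30.7% of its exon bases, and the strand setting of the counting is not given in the sources used here.

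Phlda2, a growth-restraining gene of the placenta that lies 42.1 kb from Cdkn1c and is used from the same parental copy, was counted at 4, 5 and 8 reads in control, 3, 1 and 1 in HD-het and 21, 23 and 11 in HD-homo libraries. HD-homo libraries were thus the highest and HD-het libraries were at or under the floor of 3 reads. In HD-homo cells its level exceeded that of control cells 2.79-fold (log2 1.48 ± 0.39, adjusted p = 0.00728) and at least 2.04-fold lower in HD-het cells (adjusted p = 0.0265). The call in HD-het cells was lost with DESeq2 (adjusted p = 0.059) and without control replicate 3, HD-het replicate 2 or HD-het replicate 3 (adjusted p = 0.107, 0.0833 and 0.0801).

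In each HD line, most other tested genes around Cdkn1c changed in the opposite direction to it. Of 12 tested genes that are not among the 34 and start within 1000 kb of it, 8 rose and 0 fell in HD-het cells, and 0 rose and 8 fell in HD-homo cells. Cdkn1c and Phlda2 fell in the first and rose in the second. Of all tested genes, 33.8% rose and 31.4% fell in HD-het cells, and 29.6% rose and 28.9% fell in HD-homo cells. The 8 were not the same genes in both lines: Tssc4 passed only in HD-het cells, and Tnfrsf22 and Osbpl5 only in HD-homo cells. Of these 12, 6 are imprinted themselves in some tissues and belong to the list of other imprinted genes, Cd81, Tssc4, Nap1l4, Tnfrsf22, Tnfrsf23 and Osbpl5, so that the contrast is not one between imprinted and other genes. The window around Igf2, which shares genes with that around Cdkn1c, held 14 such genes, of which 9 rose and 1 fell in HD-het cells and 0 rose and 7 fell in HD-homo cells. The largest changes around Cdkn1c were those of Shank2, a scaffold protein of synapses, at log2 1.31 in HD-het and −1.70 in HD-homo cells. Nap1l4, a histone chaperone 88.06 kb from Cdkn1c, had values of 0.05 and −0.14, neither past the threshold. These genes share chromosomal position and libraries, and no test of the region as a whole was made.

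**Figure D3:**
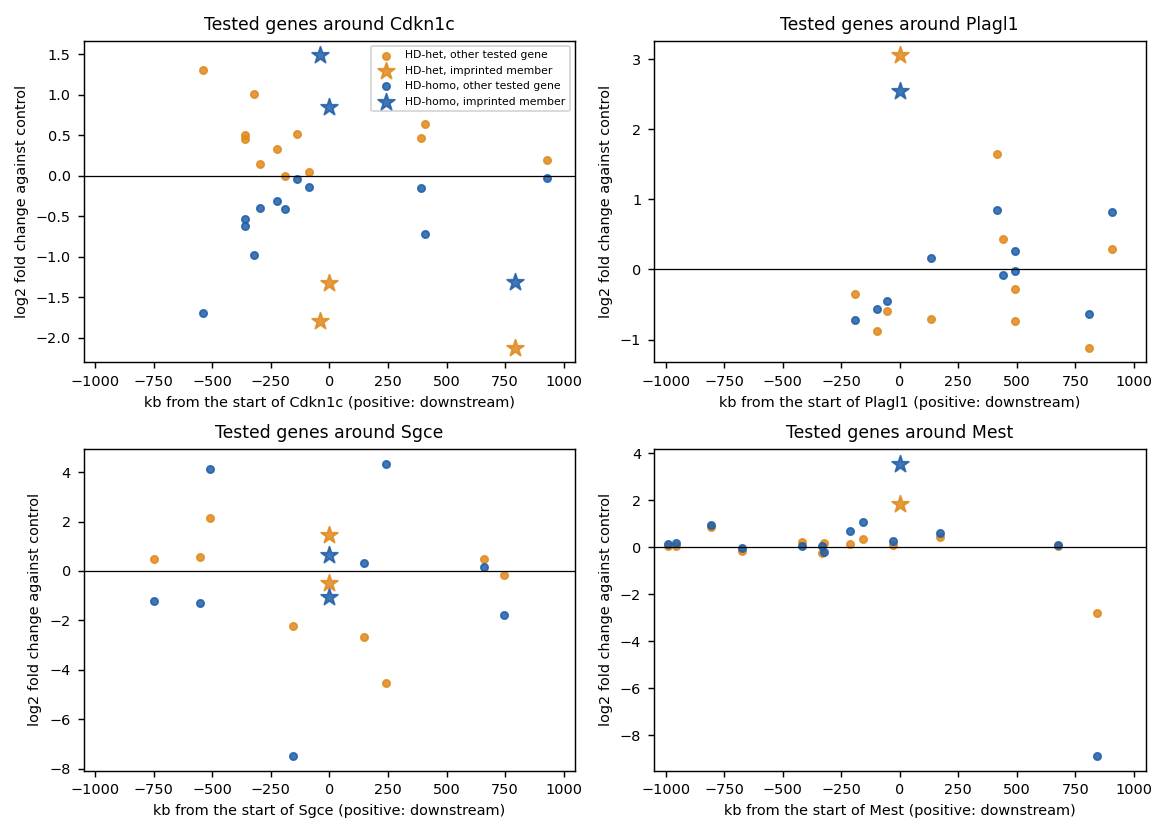
Log2 fold change against control cells of every tested gene that starts within 1000 kb of Cdkn1c, Plagl1, Sgce and Mest, against the distance in kb from that gene's start, positive downstream; stars are genes among the 34 and dots other genes, orange for HD-het and blue for HD-homo cells. Around Cdkn1c 8 of the 12 orange dots passed as higher and 8 blue dots as lower, while the orange stars lie below 0 and the blue stars of Cdkn1c and Phlda2 above; Mest and Plagl1 stand above all other genes of their windows.

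Igf2r, the mannose 6-phosphate receptor that binds Igf2 and delivers it to lysosomes, is used from the maternal copy in mice and lies at chr17:12682406-12769664. Its libraries were at 110, 105 and 117 CPM in control, 128, 121 and 125 in HD-het and 144, 148 and 136 in HD-homo cells, in 3 separate ranges. The difference was small, 1.29-fold in HD-homo cells (log2 0.37 ± 0.06, adjusted p = 0.000222) and 1.13-fold in HD-het cells (log2 0.18 ± 0.06, adjusted p = 0.0203). The latter was lost without control replicate 1, control replicate 2 or HD-het replicate 1 (adjusted p = 0.0662, 0.0983 and 0.0738). A list of 9 genes, of which 8 were tested, held the other receptors, RNA-binding proteins that act on Igf2 mRNA or on growth genes, and Hmga2, a chromatin protein that binds DNA. In HD-homo cells all 8 passed, 2 higher and 6 lower, beside 58.6% of all genes. In HD-het cells 4 passed, all lower, or 50% beside 65.1% of all genes. Igf1r, the receptor through which Igf2 signals, was at 156 ± 6.2 CPM (SD, n = 3) in control, 147 ± 3.9 in HD-het and 98.8 ± 5.0 in HD-homo cells and fell in HD-homo cells (log2 −0.66 ± 0.06, adjusted p = 1.97e-06). The Igf2 mRNA-binding proteins differed among themselves: in HD-homo cells Igf2bp1 rose 1.57-fold and Igf2bp2 1.55-fold, while Igf2bp3 fell 1.24-fold, and in HD-het cells Igf2bp3 fell 1.25-fold and the other two did not pass. Lin28b, an RNA-binding protein of fetal cells, fell by the most of this list, from 26 to 38 reads per control library to 6 to 9 in HD-homo libraries and 2 to 3 in HD-het libraries, or 4.49-fold and at least 10.9-fold lower.

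Among the 20 imprinted genes tested of the 34, Mest had the largest rise in HD-homo cells. It encodes an enzyme of the alpha/beta hydrolase fold, is used from the paternal copy in mesodermal and neural tissue of the embryo, and lies at chr6:30723547-30748465 on the plus strand. The libraries were at 3.95, 3.30 and 4.36 CPM in control, 14.2, 15.8 and 11.5 in HD-het and 45.3, 53.8 and 36.9 in HD-homo cells. The 3 ranges were far apart, with each HD-het library above every control library and each HD-homo library above every HD-het library. The rise was 3.58-fold in HD-het cells (log2 1.84 ± 0.17, adjusted p = 3.96e-06) and 11.7-fold in HD-homo cells (log2 3.55 ± 0.17, adjusted p = 1.54e-08), and HD-homo exceeded HD-het cells 3.27-fold (adjusted p = 1.41e-06). Copg2, a coat protein gene on the opposite strand, overlaps 23.1% of the exon bases of Mest. It rose 1.34-fold in HD-het and 1.53-fold in HD-homo cells. In the overlap, reads of the pair cannot be told apart if strand was not used in counting. Of 13 other tested genes within 1000 kb of Mest, 4 rose and 2 fell in HD-het cells and 5 rose and 2 fell in HD-homo cells, with a median log2 change of 0.09 and 0.15. Among all genes, 65.1% passed in HD-het and 58.6% in HD-homo cells.

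The promoter of Mest is shown with those of Nnat, Snrpn and Peg3, 3 genes that fell in HD-homo cells, because the short word TGCCGC is where the zinc finger protein Zfp57 binds methylated imprinted regions. Each is the 300 bases from 250 before to 50 after the start in RefSeq (GRCm38.p6), 5′ to 3′ on the gene's strand, and capitals mark TGCCGC or its reverse complement GCGGCA. RefSeq gives 1 window each for Nnat and Peg3, 3 for Mest and 4 for Snrpn. The windows of Mest and Snrpn shown were picked because they hold the word. It occurs 2 times in 2 overlapping windows of Mest and not in its other window, 1 time in 1 window of Snrpn and not in its other 3, 1 time in that of Nnat, and has no match in that of Peg3. These windows are Mest at chr6:30737800-30738099 on the plus strand, Nnat at chr2:157559828-157560127 on the plus strand, Snrpn at chr7:60005150-60005449 on the minus strand and Peg3 at chr7:6730370-6730669 on the minus strand.
Mest: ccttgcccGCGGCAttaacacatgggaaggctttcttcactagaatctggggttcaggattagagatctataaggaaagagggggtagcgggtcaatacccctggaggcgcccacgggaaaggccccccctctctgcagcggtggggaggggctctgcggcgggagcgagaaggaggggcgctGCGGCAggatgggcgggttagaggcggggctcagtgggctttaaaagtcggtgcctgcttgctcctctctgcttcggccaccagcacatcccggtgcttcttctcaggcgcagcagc
Nnat: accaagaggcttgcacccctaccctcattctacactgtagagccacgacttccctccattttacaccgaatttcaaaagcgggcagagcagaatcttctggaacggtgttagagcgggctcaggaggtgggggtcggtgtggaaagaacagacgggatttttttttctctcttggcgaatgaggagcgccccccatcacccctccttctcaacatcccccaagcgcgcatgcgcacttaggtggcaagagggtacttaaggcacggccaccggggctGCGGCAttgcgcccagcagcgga
Snrpn: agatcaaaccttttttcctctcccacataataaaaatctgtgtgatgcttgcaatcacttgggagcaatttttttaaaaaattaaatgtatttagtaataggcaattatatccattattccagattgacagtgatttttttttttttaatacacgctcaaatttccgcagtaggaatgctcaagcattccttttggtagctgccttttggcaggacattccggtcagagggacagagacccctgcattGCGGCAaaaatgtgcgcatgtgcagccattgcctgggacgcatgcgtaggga
Peg3: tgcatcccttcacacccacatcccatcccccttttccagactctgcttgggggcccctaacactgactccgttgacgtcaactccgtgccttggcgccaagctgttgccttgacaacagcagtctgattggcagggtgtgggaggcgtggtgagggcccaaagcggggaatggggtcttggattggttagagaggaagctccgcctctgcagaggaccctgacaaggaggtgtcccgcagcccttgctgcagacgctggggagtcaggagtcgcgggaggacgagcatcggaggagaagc
They held 17, 17, 7 and 13 CpG dinucleotides in the same order, where the median over all promoter windows was 7. Over 39 windows of 26 of the 34 genes, 9 (23.1%) held the word, beside 3813 of 32851 windows of all genes (11.6%), and several genes have more than 1 window. The word itself holds a CpG, and the 39 windows had a median of 13 CpG dinucleotides, beside 7 over all windows. The part of CpG content in the shares was not tested. No methylation was measured in these libraries, and a match is a description of the letters.

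Peg10 and Sgce, which share a promoter region on chromosome 6, moved apart. Their starts are 99 bases from each other on opposite strands, and both are used from the paternal copy. Peg10, which derives from a retrotransposon and is needed in the placenta, was at 209, 203 and 179 CPM in control, 147, 156 and 124 in HD-het and 93.6, 94.1 and 94.5 in HD-homo cells. Sgce, a sarcoglycan of the cell membrane, was at 15.03, 15.8 and 15.4 in control, 44.8, 42.4 and 41.5 in HD-het and 22.9, 21.3 and 28.8 in HD-homo cells. For Peg10 every HD library was below every control library, and for Sgce every HD library was above, with HD-het the highest. Peg10 fell 1.38-fold in HD-het (log2 −0.47 ± 0.09, adjusted p = 0.00054) and 2.09-fold in HD-homo cells (log2 −1.06 ± 0.09, adjusted p = 1.08e-06). Sgce rose 2.78-fold in HD-het (log2 1.48 ± 0.10, adjusted p = 4.39e-07) and 1.58-fold in HD-homo cells (log2 0.65 ± 0.10, adjusted p = 0.000245). Of 8 other tested genes within 1000 kb of Sgce, 3 rose and 3 fell in HD-het cells, and 3 rose and 4 fell in HD-homo cells, beside 65.1% and 58.6% of all genes that passed. In HD-het cells some on each side differed by more than Peg10 and Sgce did, and others by less. Casd1, a sialic acid O-acetyltransferase, lies beyond Sgce with log2 −2.66 in HD-het and 0.34 in HD-homo cells. The collagen gene Col1a2 lies beyond it with the largest change of the window in HD-het cells, log2 −4.54, and 4.35 in HD-homo cells. On the side of Peg10, Ppp1r9a, a phosphatase regulator of synapses that is imprinted in some tissues, was at 18.8 ± 1.3 CPM in control, 3.98 ± 0.54 in HD-het and 0.102 ± 0.015 in HD-homo cells. Pon3, a lactonase farther out on that side, was at 1.53 ± 0.11, 6.80 ± 0.45 and 26.9 ± 4.3 CPM. Ppp1r9a was 4.72-fold lower in HD-het and 184-fold lower in HD-homo cells, where it had 3 to 4 reads per library, and Pon3 was 4.46-fold and 17.6-fold higher.

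**Figure D4:**
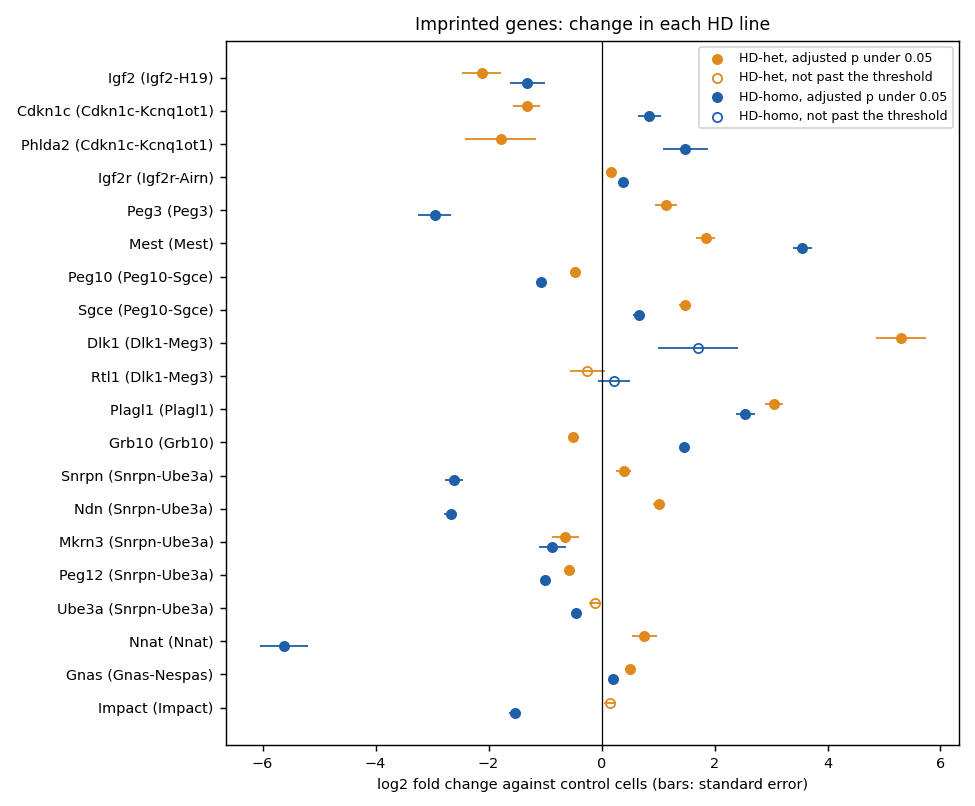
Log2 fold change against control cells of the 20 testable imprinted genes, with the standard error as a bar, orange for HD-het and blue for HD-homo cells; filled points passed an adjusted p of 0.05 and open points did not. Cdkn1c, Phlda2 and Grb10 lie left of 0 in HD-het and right of 0 in HD-homo cells, and Peg3, Snrpn, Ndn and Nnat the other way; values of Nnat in HD-homo, Phlda2 in HD-het and Dlk1 in both lines are fitted against libraries at or under 3 reads and are no bounds.

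In the Snrpn-Ube3a cluster, the region whose human counterpart is lost in Prader-Willi syndrome, 5 of 6 genes were tested, all but Magel2. All 5 were lower in HD-homo cells, where 28.9% of all genes were lower. In HD-het cells 2 were higher, 2 lower and 1 did not pass, beside 33.8% of all genes higher and 31.4% lower. Ndn, a protein of neurons that restrains growth, was at 29.1, 29.0 and 31.1 CPM in control, 60.0, 58.5 and 61.0 in HD-het and 5.64, 4.64 and 3.76 in HD-homo cells. The lines did not overlap, and replicates differed little beside the distance between lines. Ndn rose 2.01-fold in HD-het cells (log2 1.01 ± 0.10, adjusted p = 5e-06) and fell 6.35-fold in HD-homo cells (log2 −2.67 ± 0.11, adjusted p = 5.53e-09).

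Snrpn, which encodes a protein of the splicing machinery, was at 3.73, 3.51 and 4.33 CPM in control, 5.13, 5.40 and 4.61 in HD-het and 0.583, 0.616 and 0.686 in HD-homo cells. It fell 6.14-fold in HD-homo cells (log2 −2.61 ± 0.16, adjusted p = 1.26e-07), where no library came near the control range. The rise in HD-het cells was 1.31-fold (log2 0.39 ± 0.13, adjusted p = 0.021), and it was lost without control replicate 1, control replicate 2, HD-het replicate 1 or HD-het replicate 2 (adjusted p = 0.0727, 0.093, 0.063 and 0.0784). Snurf, which is translated from the same transcript, has a row of its own with nearly the same counts, 114 to 125 in control, 146 to 179 in HD-het and 19 to 27 in HD-homo libraries, and reads of the pair cannot be told apart. With both rows summed, the change was −2.58 in HD-homo and 0.40 in HD-het cells on the log2 scale.

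The other genes of the cluster changed less. Peg12, an intronless gene related to the Frat inhibitors of GSK3, was at 27.2, 26.02 and 28.1 CPM in control, 18.1, 18.2 and 18.03 in HD-het and 14.0, 11.96 and 14.8 in HD-homo cells, 1.498-fold and 1.996-fold lower (adjusted p = 9.3e-05 and 1.58e-06). Mkrn3, a makorin whose loss in people brings early puberty, was at 2.24, 2.11 and 2.71 CPM in control, 1.58, 1.34 and 1.59 in HD-het and 1.41, 0.805 and 1.67 in HD-homo cells. Every HD library of both genes was under the control range. Mkrn3 was 1.82-fold lower in HD-homo (adjusted p = 0.00869) and 1.57-fold lower in HD-het cells (adjusted p = 0.0327), and the latter was lost without control replicate 1 or 3 or any HD-het replicate (adjusted p 0.053 to 0.111). Ube3a, a ubiquitin ligase that neurons use from the maternal copy and most other cells from both, was at 183, 198 and 172 CPM in control, 154, 188 and 165 in HD-het and 118, 146 and 139 in HD-homo cells. HD-het and control libraries overlapped (log2 −0.12 ± 0.09, adjusted p = 0.267), and HD-homo libraries were 1.37-fold lower (log2 −0.45 ± 0.10, adjusted p = 0.00175).

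Peg3 and Nnat followed the same order of lines as Ndn. Peg3, a zinc finger protein used from the paternal copy, lies at chr7:6703892-6730431 with its start 147 bases from that of Usp29 on the opposite strand. It was counted at 35, 44 and 26 reads in control, 86, 83 and 77 in HD-het and 5, 7 and 3 in HD-homo libraries. These are 1.09 ± 0.21, 2.42 ± 0.11 and 0.136 ± 0.041 CPM (SD, n = 3), with no overlap between the lines. Peg3 rose 2.22-fold in HD-het (log2 1.14 ± 0.19, adjusted p = 0.000285) and fell 8.02-fold in HD-homo cells (log2 −2.96 ± 0.29, adjusted p = 4.83e-06). Nnat, neuronatin, a small membrane protein of developing neurons and of endocrine cells, lies at chr2:157560078-157562522 inside an intron of Blcap. It was counted at 77, 69 and 45 reads in control, 125, 119 and 99 in HD-het and 1, 3 and 0 in HD-homo libraries. HD-homo libraries were thus at or under the floor, and HD-het libraries were above every control library. Nnat was at least 23.6-fold lower in HD-homo cells (adjusted p = 6.5e-07) and 1.70-fold higher in HD-het cells (log2 0.76 ± 0.22, adjusted p = 0.00958). Blcap, its host, belongs to the list of other imprinted genes. It had values of log2 0.08 in HD-homo cells, which did not pass (adjusted p = 0.368), and −0.41 in HD-het cells, which passed (adjusted p = 0.000709). The neural progenitor markers moved with Ndn, Snrpn, Peg3 and Nnat: of 5 that were tested, 4 rose and 1 fell in HD-het cells and 1 rose and 4 fell in HD-homo cells, with the lowest summed level in HD-homo cells (32.5 to 45.4 CPM), and their part in these results was not tested.

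Dlk1 stood high in HD-het cells and near the floor in the other lines. It encodes a membrane protein related to the ligands of Notch that is abundant in the fetus, and it lies at chr12:109452823-109463336. The counts were 1, 2 and 0 in control, 47, 56 and 37 in HD-het and 3, 5 and 4 in HD-homo libraries. The level in HD-het cells, 1.38 ± 0.30 CPM, was at least 14.6-fold above control (adjusted p = 1.65e-06) and 12.6-fold above HD-homo cells (adjusted p = 2.73e-06). HD-homo and control cells did not differ past the threshold (adjusted p = 0.0596), and did without control replicate 2 (adjusted p = 0.0427). Rtl1, a retrotransposon-derived gene of the same cluster that the placenta needs, had 11 to 14 reads in control, 9 to 15 in HD-het and 15 to 20 in HD-homo libraries. The libraries overlapped, and log2 changes of −0.25 ± 0.30 in HD-het and 0.22 ± 0.29 in HD-homo cells did not pass (adjusted p = 0.518 and 0.567). Dlk1 and Rtl1 are thus not shown to move together at this depth, and the difference between them was not tested.

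Plagl1, a zinc finger transcription factor that slows the cell cycle and binds other imprinted genes, rose in both HD lines. It lies at chr10:13060504-13131694 on the plus strand and is used from the paternal copy. The libraries were at 1.34, 1.67 and 1.96 CPM in control, 11.7, 15.3 and 14.2 in HD-het and 8.46, 9.78 and 10.7 in HD-homo cells. Every HD library was several times above every control library, and those of HD-het cells were the highest. The rise was 8.30-fold in HD-het (log2 3.05 ± 0.17, adjusted p = 6.36e-08) and 5.84-fold in HD-homo cells (log2 2.55 ± 0.17, adjusted p = 1.92e-07). Of 10 other tested genes within 1000 kb, 2 rose and 7 fell in HD-het cells and 3 rose and 4 fell in HD-homo cells. Over all genes, 65.1% passed in HD-het and 58.6% in HD-homo cells. None of the 10 reached the change of Plagl1, with a highest log2 value of 1.65 in HD-het and 0.84 in HD-homo cells.

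Grb10, an adaptor protein that dampens signals from the insulin and Igf1 receptors, was at 346, 336 and 305 CPM in control, 237, 240 and 214 in HD-het and 870, 955 and 874 in HD-homo cells. It is used from the maternal copy in most tissues and from the paternal copy in neurons, and lies at chr11:11930508-12038683. The lines were fully separated, with HD-homo libraries far above the others. Grb10 fell 1.43-fold in HD-het (log2 −0.51 ± 0.07, adjusted p = 6.74e-05) and rose 2.74-fold in HD-homo cells (log2 1.45 ± 0.07, adjusted p = 1.69e-08). Of the receptors it acts on, Igf1r fell in HD-homo cells, as given with Igf2r, and so did Insr, the insulin receptor. Insr was at 45.98 ± 0.94 CPM (SD, n = 3) in control, 40.5 ± 2.9 in HD-het and 18.1 ± 3.0 in HD-homo cells, 2.54-fold lower in HD-homo cells (log2 −1.34 ± 0.11, adjusted p = 1.05e-06), and did not pass in HD-het cells (adjusted p = 0.141).

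Gnas, the alpha subunit of the stimulatory G protein, is imprinted for some of its transcripts and in some cells. It was at 691, 680 and 708 CPM in control, 976, 933 and 1028 in HD-het and 833, 746 and 825 in HD-homo cells, so that HD-het libraries were the highest and control libraries the lowest. The rise was 1.41-fold in HD-het (log2 0.50 ± 0.06, adjusted p = 3.7e-05) and 1.16-fold in HD-homo cells (log2 0.21 ± 0.06, adjusted p = 0.0144). The latter was lost without control replicate 1, control replicate 2 or HD-homo replicate 1 (adjusted p = 0.0502, 0.0571 and 0.0525). Counts per gene do not separate the transcripts of Gnas, and antisense genes cover 13.1% of its exon bases. Impact, which inhibits the eIF2 kinase Gcn2 in neurons, was at 114, 114 and 115 CPM in control, 120, 133 and 127 in HD-het and 32.8, 47.1 and 38.2 in HD-homo cells. HD-homo libraries were far below the rest, a fall of 2.90-fold (log2 −1.53 ± 0.11, adjusted p = 3.17e-07). The HD-het libraries lay just above the control libraries, and the difference did not pass (log2 0.15 ± 0.10, adjusted p = 0.212), but did when only these 2 lines were fitted (adjusted p = 0.0283).

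A list of 37 other imprinted genes, of which 36 had a row and 22 were tested, gave 17 that passed in HD-homo cells, 6 higher and 11 lower, and 17 in HD-het cells, 9 higher and 8 lower. These are 77.3% of the tested genes in both comparisons, beside 58.6% and 65.1% of all genes. Slc38a4, an amino acid transporter imprinted in the placenta, had the largest rise in HD-homo cells, from 7 to 16 reads per control library to 231 to 537 (30.5-fold, adjusted p = 1.21e-07), and had 2 to 3 reads in HD-het libraries. Its fall in HD-het cells (adjusted p = 0.0134) was lost without control replicate 1 (adjusted p = 0.0528). Ppp1r9a, described with Sgce, had the largest fall in both HD lines and Pon3 the largest rise in HD-het cells.

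Proteins that keep or erase the parental marks were read as a list of 26 genes, of which 24 were tested. In HD-homo cells 9 passed, 2 higher and 7 lower, or 37.5% beside 58.6% of all genes, a count that came out above the background share in 1 of the alternatives run. In HD-het cells 17 passed, 5 higher and 12 lower, or 70.8% beside 65.1%. Zfp57, the zinc finger protein that holds methylation at imprinted regions, was at 22.4 ± 1.5 CPM (SD, n = 3) in control, 23.6 ± 2.4 in HD-het and 20.8 ± 3.5 in HD-homo cells and did not pass in either comparison (adjusted p = 0.609 and 0.475). Its partner Trim28 fell in both lines, from 480 ± 15 CPM in control to 339 ± 30 in HD-het and 331 ± 27 in HD-homo cells (log2 −0.50 ± 0.08 and −0.54 ± 0.08, adjusted p = 0.000164 and 0.000123). Dnmt1, which copies DNA methylation at replication, was at 362 ± 18, 272 ± 18 and 328 ± 8.6 CPM in the same order of lines, lower in HD-het cells (adjusted p = 0.000145) and not past the threshold in HD-homo cells (adjusted p = 0.0709; 0.0436 without HD-het replicate 3). Ctcf, the insulator protein that binds between Igf2 and H19, was at 126 ± 2.5, 103 ± 4.7 and 140 ± 9.6 CPM, lower in HD-het cells (adjusted p = 0.00146) and not past the threshold in HD-homo cells (adjusted p = 0.0539, and 0.0477 and 0.0373 without HD-homo replicates 1 and 2).

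Among the 24 tested genes of this list, enzymes that oxidize or set DNA methylation held the largest rise and fall past the threshold in each HD line. Dnmt3l, which was not tested, had 0 reads in every control and HD-het library and 8, 20 and 8 in HD-homo libraries. Tet1, which oxidizes 5-methylcytosine, was at 5.89 ± 0.30 CPM in control, 0.666 ± 0.113 in HD-het and 1.39 ± 0.06 in HD-homo cells, 8.84-fold and 4.25-fold lower (adjusted p = 3.7e-08 and 2.69e-07). Tet2, of the same family, was at 9.93 ± 0.98, 22.3 ± 3.9 and 12.8 ± 2.1 CPM, 2.24-fold higher in HD-het cells (adjusted p = 3.98e-05). In HD-homo cells Tet2 did not pass (log2 0.37 ± 0.15, adjusted p = 0.0554), and did in 8 of the alternatives run, among them those without HD-homo replicate 1 or 3 and HD-het replicate 2 or 3 (adjusted p 0.0357 to 0.0466). Dnmt3b, a methyltransferase that sets new methylation, was at 5.06 ± 1.22, 4.31 ± 0.69 and 8.53 ± 0.94 CPM and rose 1.68-fold in HD-homo cells (adjusted p = 0.00368). The value in HD-het cells, log2 −0.23 ± 0.18, did not pass (adjusted p = 0.284). Dnmt3a, which also sets new methylation, was at 32.8 ± 3.7, 72.1 ± 8.8 and 27.8 ± 2.0 CPM, 2.20-fold higher in HD-het cells (log2 1.14 ± 0.11, adjusted p = 3.92e-06), and did not pass in HD-homo cells (adjusted p = 0.0816).

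**Figure D5:**
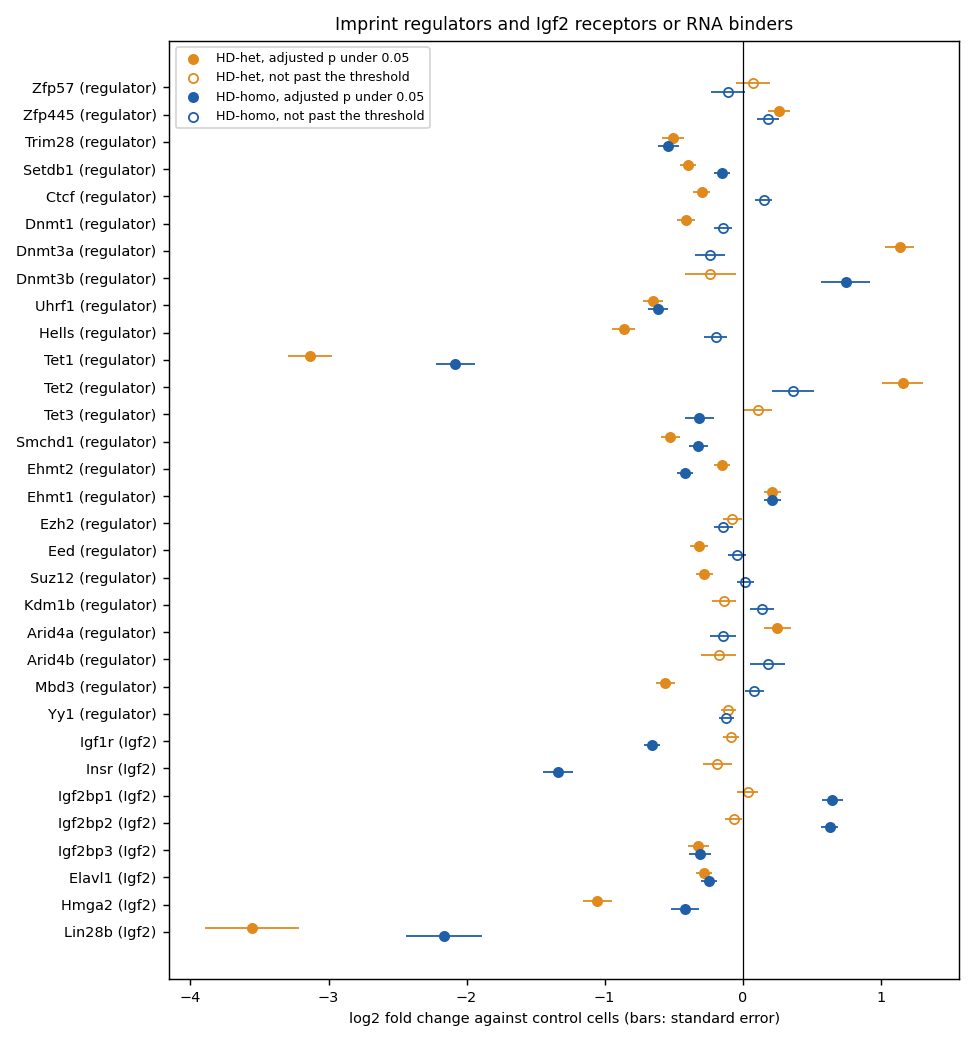
Log2 fold change against control cells, with the standard error as a bar, of the 24 tested imprint regulators and the 8 tested Igf2 receptors or RNA binders (Igf2 in brackets), orange for HD-het and blue for HD-homo cells; filled points passed an adjusted p of 0.05. Tet1 and Lin28b lie farthest left in both HD lines, and most other regulators lie between −1 and 1.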

How the data were processed

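Total RNA was selected for poly(A), and strand-directional libraries were made, per the labels. The authors deposited raw counts per gene symbol, whole numbers without normalization, for 9 libraries. The submitters' processing notes name cutadapt, Bowtie 1.1.2, RSEM 1.3.0 and DESeq2 and the builds GRCm38.p5 and mm10, with no role for each. The annotation and the strand setting of the counting are not given in the sources used here. Columns were matched to samples by the labels, and all 36410 rows were kept, 26 of them with a date in place of a symbol.

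The analysis used edgeR 4.0.16 under R 4.3.3. Genes were filtered by filterByExpr (minimum count 10, 13508 genes kept), scaled by TMM, and compared by the two-sided quasi-likelihood test fitted to all 9 libraries, with Benjamini-Hochberg adjustment over all tested genes of a comparison and a threshold of 0.05. An exact permutation test of 3 against 3 libraries cannot go below p = 0.1 and was not used. Folds are ratios of mean normalized CPM. Where all libraries of a line had 3 reads or fewer, the fold was taken against 3 reads per library and is a bound.

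The members and lists were chosen with earlier results of these data known. All 34 members are named. From the lists of other imprinted genes, imprint regulators and Igf2 receptors or RNA binders, the largest rise and fall past the threshold in each HD line are named. Dnmt1, Trim28, Zfp57, Ctcf, Igf2bp1, Igf2bp2, Igf2bp3 and Igf1r are named as well. Shank2, Nap1l4, Copg2, Blcap, Snurf, Insr, Dnmt3a, Dnmt3l, Casd1, Hmga2 and the single markers were chosen after their values were seen. Gene positions come from GENCODE M21, and neighbours are tested genes that start within 1000 kb. Promoters come from RefSeq on GRCm38.p6, matched by symbol. Those on chromosome 18 were left out for the members, and 26 of 34 members had a promoter elsewhere.

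The steps were tested on simulated data of 13308 genes for HD-homo against control: 199 of 200 changed genes were called, and 4.78% of calls were false. Changes were put only into well-counted genes, with the same spread for every gene and no replicate effect. The simulation therefore says nothing about genes with few reads, nor about data in which most genes differ. Alternatives were other normalizations, DESeq2 1.42.0, other filters and thresholds, a prior count of 2, only the lines compared, a replicate block, thinning and leaving out each library. Summing Snrpn and Snurf was chosen after seeing the data.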

Additional observations from a re-analysis of the deposited data

Results flagged for a closer look

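For 7 imprinted genes the change against control cells passed in both HD lines with opposite signs. HD-homo and HD-het cells also differed for them by edgeR's quasi-likelihood test, adjusted by Benjamini-Hochberg. The genes were picked by these calls, and the share of all genes that meets the same rule was not counted. The number is therefore no evidence about imprinted genes. The log2 change in HD-homo minus that in HD-het cells was 2.17 for Cdkn1c (adjusted p = 4.77e-06), 3.27 for Phlda2 (adjusted p = 0.000122) and 1.96 for Grb10 (adjusted p = 1.29e-09). It was −4.10 for Peg3 (adjusted p = 9.38e-08), −3.0 for Snrpn (adjusted p = 2.45e-08), −3.68 for Ndn (adjusted p = 3.41e-10) and −6.38 for Nnat (adjusted p = 8.37e-08). All 3 libraries of HD-homo cells lay on the stated side of all 3 libraries of HD-het cells for each of them. Genes picked by such calls would mostly show this, and libraries of these lines did not overlap for 72.8% of all genes. The values of Phlda2 and Nnat are fitted against libraries at or under 3 reads and are no bounds: the ratios of means were at least 5.70-fold higher for Phlda2 and at least 40.1-fold lower for Nnat. Impact had opposite signs too, log2 0.15 in HD-het and −1.53 in HD-homo cells, with a difference of −1.68 (adjusted p = 9.54e-08), but its value in HD-het cells did not pass. Over the alternatives run, fitted values for Phlda2 ran from 2.39 to 3.91, the highest without HD-het replicate 1. For Nnat they ran from −7.48, without HD-homo replicate 2, to −5.17.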

How the results depend on the processing

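Of the alternatives run on the log2 changes of the 20 testable imprinted genes, 1040 values kept their direction and side of the threshold, 19 lost the call, 3 gained it and 1 reversed; the calls that changed are given beside each gene, and the cause was not tested. The reversed value was Mkrn3 in HD-homo against HD-het cells, which ran from −0.47 without HD-homo replicate 3 to 0.038 without HD-homo replicate 2. Among other genes, Zfp57 in HD-homo against control cells ran from −0.21 without HD-homo replicate 1 to 0.015 without HD-homo replicate 3, and Igf2bp1 in HD-het against control cells from −5.51e-05 without HD-het replicate 1 to 0.065 without control replicate 1, none of them called. With a log2 change of at least 1 required as well, the calls among the imprinted genes in HD-homo against control, HD-het against control and HD-homo against HD-het were 11, 9 and 10, among the other imprinted genes 8, 6 and 9, and among the regulators 1, 3 and 2. Leaving out each library gave 17 to 18, 14 to 17 and 17 to 18 imprinted genes, 16 to 17, 14 to 18 and 18 to 20 other imprinted genes, and 7 to 12, 14 to 18 and 15 to 17 regulators. For both of these alternatives the share of all genes called was not counted, so that the counts carry no weight as evidence about the lists. Deviations of same-numbered libraries from their line's mean correlated weakly (correlations −0.01 to 0.15). Such values cannot tell whether the replicate numbers pair the libraries across lines, and the labels do not say. With the replicate number as a block, calls over all genes went from 7910 to 8372, from 8797 to 9160 and from 9666 to 9938, and regulators called in HD-homo against control cells from 9 to 17. A prior count of 2, above edgeR's default, moved fitted values of genes at the floor, such as Dlk1 in HD-het cells from 5.30 to 3.99. Library totals alone moved the median of all genes by under 0.1 on the log2 scale. Depth limits Phlda2, Dlk1, Rtl1, Peg3 and Nnat, which had few reads in at least 1 line.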
